A study of Mus musculus with 8 samples.

Results

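Megakaryocytes are the large cells of the fetal liver and bone marrow that shed platelets, and 8 genes whose products are classic markers of that lineage were followed here. They were chosen by name and not by any measured value. All 8 were found among the 23337 genes of the table: Pf4, Ppbp, Itga2b, Itgb3, Gp1ba, Gp1bb, Gp9 and Treml1. A platelet carries adhesion receptors on its surface and stores proteins in its alpha granules. The glycoprotein Ib-IX complex binds von Willebrand factor at an injured vessel wall, the integrin alpha-IIb beta-3 binds fibrinogen and joins platelets to each other, and the granules release the chemokines platelet factor 4 and pro-platelet basic protein. Several of these genes are also used outside the lineage. Itgb3 is expressed by endothelial cells, Itga2b by early blood progenitors, and Pf4 by some tissue macrophages of the mouse.

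The RNA is from cells that a flow cytometer sorted as endothelial out of whole mouse embryos (E15.5, days after conception). All groups carry Cdh5-CreERT2(PAC), an inducible recombinase driven by an endothelial promoter, and Rosa26fsTRAP, a recombinase-dependent reporter, although the genotype field of every sample reads wild type. Pregnant females of one group were given tamoxifen by gavage at E12.5, and those of the other group did not, so an effect of tamoxifen and one of the recombinase it activates cannot be told apart. The labels list 8 samples, 4 per group, without saying which came from separate litters or embryos. The p-values below thus rest on a spread between samples that could be purely technical. Ribosomal RNA was depleted rather than messenger RNA selected, and the libraries were prepared together.

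The table has 10 fields per line under a header of 9, so its 8 library names can lie over the last 8 or the first 8 value columns. Columns 3 to 5, counting the gene symbol as the first, carry a name without tamoxifen either way and are called no_tamoxifen_1 to no_tamoxifen_3. Columns 7 to 9 carry a tamoxifen name either way and are called tamoxifen_1 to tamoxifen_3. Column 6 has a name without tamoxifen under the first placement and with it under the second. Column 10 has a tamoxifen name under the first placement and none under the second. Both are shown apart. Values are the authors' normalised read counts, and the 6 libraries held 12212472 to 19908404 reads in genes, of which 29.4% to 38.7% lay in the ribosomal RNA gene Rn45s.

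The libraries held blood cell RNA beside endothelial RNA, which touches every gene below. The summed level of 10 endothelial markers was 8277 to 20715 normalised reads over the 6 libraries, that of 10 macrophage markers 34352 to 55241 and that of 7 neutrophil markers 43001 to 75038. The sum of 10 connective tissue markers was 57408 in tamoxifen_1 and 87747 in tamoxifen_2. It was 4506 in tamoxifen_3, near the range of 2029 to 4314 that the untreated libraries had. All 10 of these markers were higher with tamoxifen at an unadjusted p under 0.05, as were 659 of all 13480 genes tested, and none passed after adjustment in limma. Column 6 was unlike the 6 libraries: its macrophage sum was 791, its endothelial sum 3556, and 9 markers of red cell precursors summed to 141995, against 293 to 1467 in the 6 libraries. Its connective tissue sum was 457042, also above all 6. The alpha-globin genes Hba-a1 and Hba-a2 were at 0 in all 6. In column 6 they were at 0 and 24.4, although the beta-globin gene Hbb-bs was at 50279 there. Their zeros thus do not show that red cell RNA was absent from the 6 libraries. In bulk RNA, fewer cells of a type and less RNA per cell cannot be told apart. The part of these cell types in the results below was not tested beyond the values given beside them.

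The promoters of 3 of the genes are shown first. Pf4 and Ppbp are neighbours on chromosome 5 with only 2371 bases between them, yet they had very different levels, and Gp1ba had the most motif matches, which is why it was picked. Sequences are from RefSeq on GRCm38.p6, 250 bases before to 50 after the gene's start, and a promoter was found for 7 of the 8 genes. Capitals mark matches on either strand to the GATA motif (AGATAA and its variants AGATAG with another last letter, TGATAA with another first letter and TGATAG with both) or to the ETS motif (CAGGAAG and the variant form CCGGAAG), the binding motifs of transcription factor families that act in megakaryocytes.
Pf4, chr5:90772185-90772484, plus strand: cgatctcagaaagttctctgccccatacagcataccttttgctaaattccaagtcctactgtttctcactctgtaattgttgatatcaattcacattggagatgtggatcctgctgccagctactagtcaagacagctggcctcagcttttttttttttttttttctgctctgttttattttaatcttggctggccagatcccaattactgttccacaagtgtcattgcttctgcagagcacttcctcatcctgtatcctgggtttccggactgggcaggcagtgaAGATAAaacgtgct
Ppbp, chr5:90768268-90768567, plus strand: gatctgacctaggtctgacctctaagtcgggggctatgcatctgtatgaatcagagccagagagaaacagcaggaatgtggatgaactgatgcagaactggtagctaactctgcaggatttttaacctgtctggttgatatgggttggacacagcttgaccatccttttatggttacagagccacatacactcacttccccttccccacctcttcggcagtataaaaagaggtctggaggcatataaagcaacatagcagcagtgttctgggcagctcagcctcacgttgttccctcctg
Gp1ba, chr11:70638872-70639171, plus strand: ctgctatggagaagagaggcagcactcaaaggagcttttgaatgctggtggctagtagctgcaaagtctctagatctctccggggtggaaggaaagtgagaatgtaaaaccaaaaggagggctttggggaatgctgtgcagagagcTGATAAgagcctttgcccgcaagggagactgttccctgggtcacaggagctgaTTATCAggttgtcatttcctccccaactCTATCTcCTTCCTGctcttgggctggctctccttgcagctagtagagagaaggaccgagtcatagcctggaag
The Gp1ba window held 3 GATA matches and 1 ETS match, none of them overlapping. The Pf4 window held 1 GATA match, past the start of the gene, and the Ppbp window held neither motif. Ppbp instead had 2 matches to TATAAA on the gene's strand, left in lower case, which begin 30 and 8 bases before the start. Over the 7 promoters, 3 held a GATA match (Pf4, Gp1ba and Gp1bb), 1 an ETS match and 1 a TATAAA match. Of all 32851 RefSeq promoters of this length, 29.8% held the GATA motif, 20.9% the ETS motif and 8.32% TATAAA, so the GATA share of these few genes is a description and no enrichment.

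Pf4 was by far the most abundant of the 8 transcripts, and the rest of the platelet genes were scarce. Per kilobase of merged exons, Pf4 averaged 1621 normalised reads over the 6 libraries, with a range of 1061 to 2037. The integrin genes followed, Itgb3 at 54.5 (36.8 to 70.2) and Itga2b at 54.0 (41.5 to 76.5). Gp1ba averaged 27.7 (17.1 to 41.0), Gp9 21.4 (10.8 to 33.7) and Ppbp 18.1 (9.65 to 41.7). Treml1, at 9.73 (4.74 to 14.2), and Gp1bb, at 4.19 (1.34 to 8.80), closed the order. Only Pf4 against Itgb3, and Itga2b against Gp1ba, were neighbours in this order whose library ranges did not overlap. On the same scale the macrophage receptor gene Csf1r was at 1293 to 2118 and the endothelial cadherin gene Cdh5 at 471 to 1237. Pf4 was the highest of the 8 in each of the 6 libraries.

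**Figure D1:**
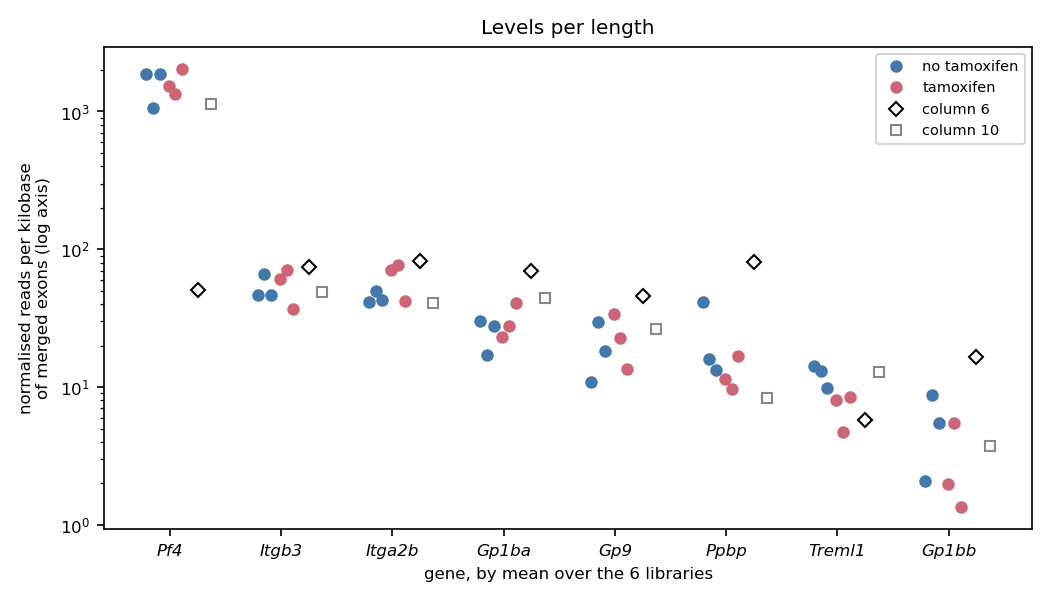
Normalised reads per kilobase of merged exons (log axis) for the 8 genes, ordered by their mean over the 6 libraries. Blue points are the 3 libraries without tamoxifen, red points the 3 with it, and open symbols columns 6 and 10. Pf4 lies between 1061 and 2037 in the 6 libraries and at 50.8 in column 6, where it falls among the other genes.

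The comparison asked whether these transcripts differed in the sorted cells after tamoxifen, and none of them passed the test. Genes averaging under 10 normalised reads were left out of the test, which removed Gp1bb and kept 7 of the 8. Of the 7, limma with Benjamini-Hochberg adjustment over 13480 genes called 0 higher and 0 lower, against 0.0445% of all genes called, and 0 had an unadjusted p under 0.05. edgeR, which called 0.0371% of all genes, and DESeq2, which called 2.04% (1.83% higher and 0.208% lower), also called 0 of the 7 on recovered reads, while DESeq2 gave 1 of them, Itga2b, an unadjusted p under 0.05. The median log2 fold change of the 7 was 0.06, with 5 positive and 2 negative, beside -0.02 for all genes tested. At this depth and spread the 95% intervals were wide, so a p that missed the threshold does not show equal levels. Groups did not overlap for 1 of the 7, Treml1, where 13.9% of all genes tested had groups that did not overlap. Among the alternatives, leaving out any library but tamoxifen_3 gave a share of all genes called of 0.0148% to 0.0371% (0.0223% without no_tamoxifen_1 and 0.0297% without tamoxifen_2). The share was 0.0317% with no filter and 0.0546% with a filter at 50. A block on the replicate number gave 0.148% higher and 0.00742% lower. The share was 0.0297% with column 6 counted as untreated and column 10 as treated, 0 with column 6 counted as treated, and 0.0668% with column 10 added alone (0.0593% higher). No gene of the 8 was called in any of these.

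**Figure D2:**
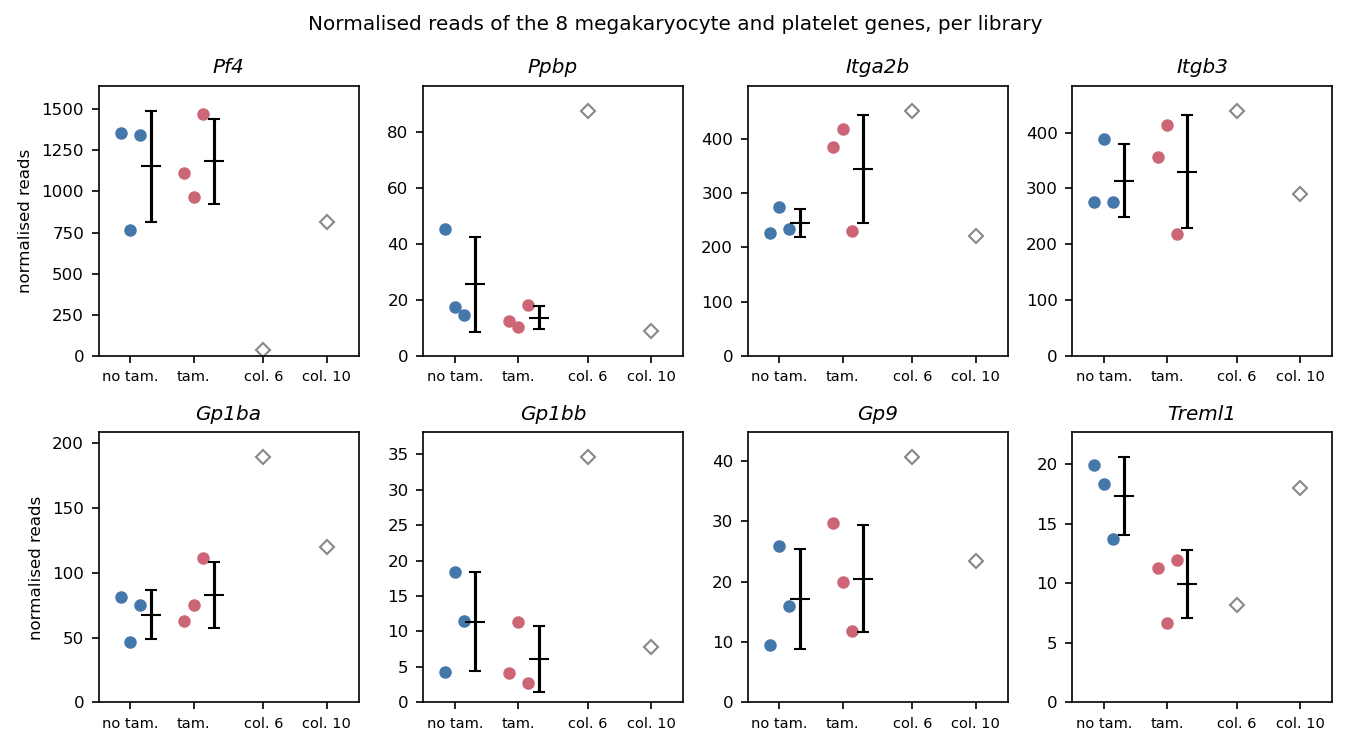
Normalised reads of each gene, with each axis starting at 0. Blue and red points are the 3 libraries without and the 3 with tamoxifen, the bar beside them is the mean ± SD (n = 3 each), and open diamonds are columns 6 and 10. Only Treml1 has groups that do not overlap among the 6 libraries. Column 6 lies above all 6 libraries for 6 of the 8 genes, and the share of all genes that do so was not worked out.

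Of the chemokines, Pf4 encodes platelet factor 4, the heparin-binding chemokine of alpha granules. It lies on chromosome 5 at 90772435 to 90773383 of GRCm38, plus strand, with 721 bases of merged exons. Without tamoxifen it had 1357, 765 and 1342 normalised reads, and with tamoxifen 1111, 968 and 1469. The tamoxifen libraries fell inside or just above the range of the others, with no_tamoxifen_2 the lowest of the 6. The means were 1154 ± 338 and 1182 ± 258 (SD, n = 3 each). The fold was 1.04 with a 95% interval of 0.711 to 1.53 (log2 0.06 ± 0.24 SE, limma adjusted p = 0.959). Pf4 was lowest in no_tamoxifen_2 and highest in tamoxifen_3. The macrophage marker sum was also highest in tamoxifen_3, at 55241, but lowest in tamoxifen_2, at 34352. The mast cell and basophil sum (41199) and the blood progenitor sum (17856) were highest of the 6 in tamoxifen_3 too. The former was lowest in no_tamoxifen_2, at 21192. The endothelial, neutrophil, red cell precursor and connective tissue sums were highest in other libraries. The source of the Pf4 reads was not tested. Per kilobase, the ratio of Pf4 to Csf1r stayed within 0.638 to 1.09 over the 6 libraries, while the ratio of Pf4 to Itga2b ranged from 17.6 to 48.1. In column 6 both lay outside these ranges, at 1.95 for Pf4 to Csf1r and 0.613 for Pf4 to Itga2b.

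Ppbp, which encodes the precursor of several platelet chemokines including the neutrophil attractant NAP-2, lies upstream of Pf4 at 90768518 to 90770063. It had 45.1, 17.3 and 14.5 normalised reads without tamoxifen and 12.3, 10.5 and 18.2 with it. The no_tamoxifen_1 library, with 52 reads, was above all others, which had 11 to 26. The groups overlapped, at 25.6 ± 16.9 and 13.7 ± 4.07 (SD, n = 3 each). The log2 fold change was -0.72 ± 0.51 (SE, limma adjusted p = 0.682), with a 95% interval of the fold of 0.270 to 1.37. Per kilobase, Pf4 over Ppbp came to 45.2, 66.5 and 139 in the untreated libraries and to 136, 139 and 121 in the treated ones, so that the neighbouring genes did not keep a fixed proportion.

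Itga2b encodes the alpha-IIb chain of the fibrinogen receptor and is used early in the megakaryocyte lineage. It lies on chromosome 11 at 102453297 to 102470122, minus strand, and a small annotated RNA, Gm23563, lies within it on the same strand. It had 226, 273 and 234 normalised reads without tamoxifen and 385, 417 and 231 with it. Both tamoxifen_1 and tamoxifen_2 lay above every library without tamoxifen, and tamoxifen_3 lay among them. The means were 245 ± 25.1 and 344 ± 99.7 (SD, n = 3 each), a fold of 1.37 with a 95% interval of 0.955 to 1.95 (log2 0.45 ± 0.23 SE, limma adjusted p = 0.582). Without tamoxifen_3 Itga2b passed the threshold at a log2 fold change of 0.71 ± 0.16 (SE, limma adjusted p = 0.00795), in a comparison that called 7.22% of all genes higher and 3.48% lower. In the other 16 alternatives it did not pass, with adjusted p values of 0.404 to 0.993. The same 2 tamoxifen libraries had the connective tissue sums of 57408 and 87747. They also had the highest red cell precursor sums of the 6 libraries, at 1158 and 1467. Their endothelial sums, 20276 and 20715, were above those of the other 4 libraries, but only just. In no_tamoxifen_1 the endothelial sum was 20086, and Itga2b, at 226, was the lowest of the 6 libraries.

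Itgb3 encodes the beta-3 chain, which pairs with alpha-IIb in platelets and with the alpha-V chain in endothelial and other cells. It lies on chromosome 11 at 104608000 to 104670476, plus strand. It had 276, 389 and 275 normalised reads without tamoxifen and 357, 414 and 217 with it. The groups overlapped, with tamoxifen_3 the lowest library and tamoxifen_2 the highest. The means were 313 ± 65.4 and 329 ± 101 (SD, n = 3 each), and the fold was 1.03 with a 95% interval of 0.690 to 1.53 (limma adjusted p = 0.974). Per kilobase, Itga2b over Itgb3 came to 0.888, 0.760 and 0.921 in the untreated libraries and to 1.17, 1.09 and 1.15 in the treated ones. That ratio was picked after its values were seen and is given without a test. It did not overlap between the 6 libraries, but column 10, a tamoxifen library under 1 placement of the names, was at 0.824. Column 6, untreated under that same placement, was at 1.11, inside the treated range.

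Of the glycoprotein Ib-IX complex, Gp1ba encodes the chain that contacts von Willebrand factor. It lies on chromosome 11 at 70639122 to 70642036, plus strand. It had 81.6, 46.5 and 75.3 normalised reads without tamoxifen and 62.5, 75.1 and 112 with it. The groups overlapped, with tamoxifen_3 the highest and no_tamoxifen_2 the lowest. The means were 67.8 ± 18.7 and 83.0 ± 25.5 (SD, n = 3 each), and the fold was 1.22 with a 95% interval of 0.751 to 1.98 (limma adjusted p = 0.796).

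Gp9 encodes the small subunit that stabilises the complex at the cell surface and lies on chromosome 6 at 87778072 to 87779768, plus strand. It had 9.54, 25.9 and 16.0 normalised reads without tamoxifen and 29.7, 20.0 and 11.9 with it, which rest on 11 to 29 reads per library. The lowest library was no_tamoxifen_1 and the highest tamoxifen_1, and the groups overlapped. The log2 fold change was 0.26 ± 0.51 (SE, limma adjusted p = 0.900), with a 95% interval of the fold of 0.536 to 2.68.

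Gp1bb encodes the subunit linked to Gp1ba by a disulfide bond. It lies on chromosome 16 at 18620317 to 18622403, minus strand, overlapping the annotated genes Sept5 and Gm49601 on the same strand, so how its reads were assigned is uncertain. It had 4.34, 18.4 and 11.4 normalised reads without tamoxifen and 4.10, 11.4 and 2.81 with it, from 4 to 17 reads per library. For the 4 reads of tamoxifen_1 the exact 95% Poisson interval is 1.09 to 10.2 reads, which covers counting error only. The groups overlapped. With no filter on low values, its log2 fold change was -0.81 ± 0.66 (SE, limma adjusted p = 0.750). The order of the libraries differed within the complex: Gp9 was highest in tamoxifen_1, Gp1ba in tamoxifen_3 and Gp1bb in no_tamoxifen_2, and the ratio of Gp1ba to Gp9 per kilobase ranged from 0.581 to 3.03.

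Treml1 encodes a receptor stored in the alpha granule membrane and brought to the surface when platelets are activated. It lies on chromosome 17 at 48359916 to 48367176, plus strand. It had 20.0, 18.4 and 13.7 normalised reads without tamoxifen and 11.3, 6.65 and 11.9 with it. All 3 tamoxifen libraries were below all 3 without it, on 7 to 23 reads per library, and 7.62% of all genes tested showed this pattern in this direction. The means were 17.3 ± 3.25 and 9.95 ± 2.87 (SD, n = 3 each). The difference did not pass the test, with a log2 fold change of -0.77 ± 0.45 (SE, limma adjusted p = 0.625) and a 95% interval of the fold of 0.289 to 1.20. Column 10 had 18.0, inside the range without tamoxifen.

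In column 6, Pf4 was low and 6 of the 8 genes were high. The column held 8695745 reads in genes, fewer than any of the 6 libraries, with 45.7% of them in Rn45s. The share of all genes for which column 6 lay above all 6 libraries was not worked out. Whether 6 of 8 is unusual thus cannot be judged. Pf4 had 36.6 normalised reads, from 18 reads, below all 6 libraries. Ppbp (87.5), Itga2b (452), Itgb3 (439), Gp1ba (189), Gp1bb (34.6) and Gp9 (40.7) were each above all 6, and Treml1 was at 8.14, from 4 reads, below every library without tamoxifen and inside the range of those with it. Per kilobase the ratio of Pf4 to Ppbp was 0.629 in column 6, against 45.2 to 139 in the 6 libraries, and Itga2b was the highest of the 8 genes in place of Pf4. The column's macrophage sum of 791 compares with at least 34352 in the 6 libraries, and Csf1r was at 26.1 per kilobase against 1293 to 2118. Its sums of mast cell and basophil (97.6), neutrophil (684), blood progenitor (2167) and endothelial markers (3556) were also below all 6. The red cell precursor and connective tissue sums were above all 6. Which of these cell types the low Pf4 goes with was not tested. Since the column's group depends on the placement of the names, no test was based on it alone. In column 10, Pf4 was at 813, within the range of the 6 libraries. Itga2b (221) and Ppbp (8.99) were below all 6 there, and Gp1ba (119.9) was above all 6. Its endothelial sum of 5116 was below those of the 6 libraries, and its mast cell and basophil sum of 53795 was above theirs, which reached 41199.

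**Figure D3:**
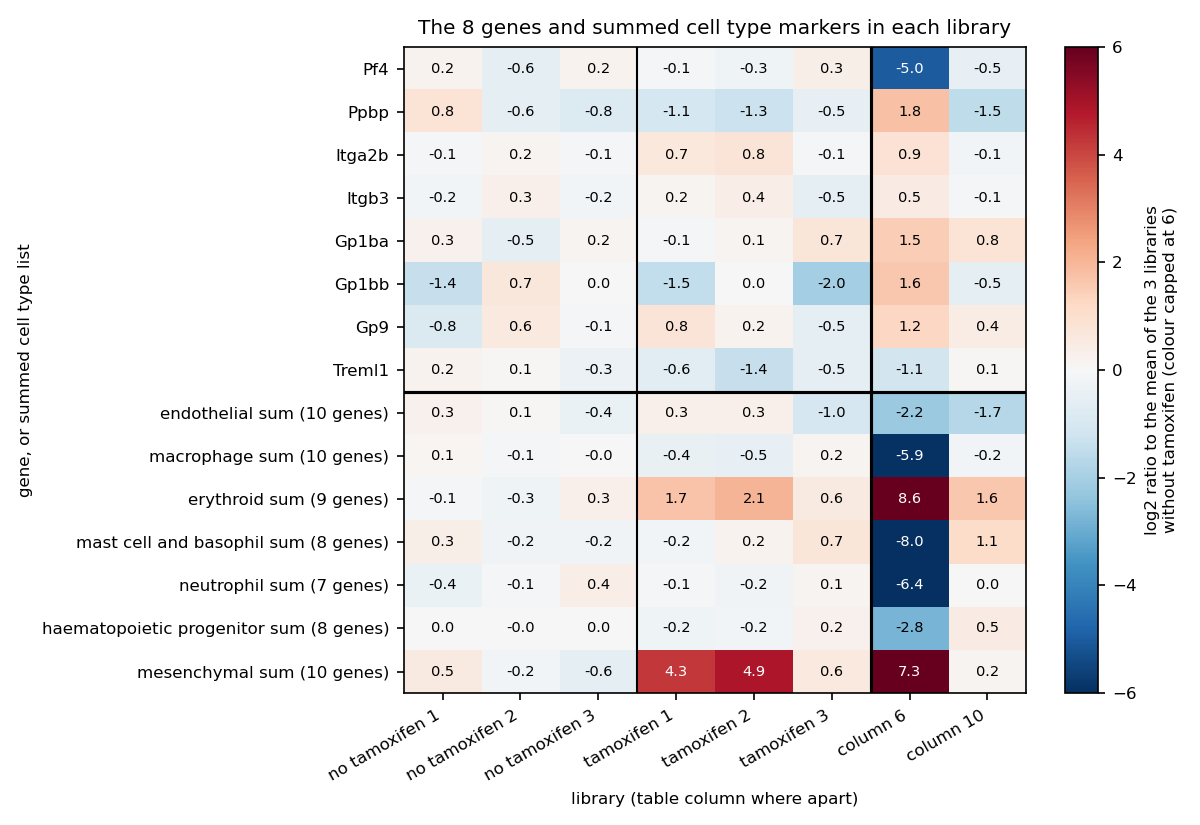
Log2 ratio of each library to the mean of the 3 libraries without tamoxifen, for the 8 genes (above the line) and for the summed markers of 7 cell type lists (below it), with numbers in the cells and colour limited to 6 either way. Column 6 has less Pf4 (36.6 normalised reads) and a lower macrophage sum (791) than any other column, and a higher erythroid sum (141995) and mesenchymal sum (457042). Its endothelial, mast cell and basophil, neutrophil and progenitor sums are also the lowest. The mesenchymal sums of tamoxifen_1 and tamoxifen_2, 57408 and 87747, come next.

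Other genes of megakaryocytes and platelets were taken from 4 lists of 47 symbols, of which 45 were in the table and 44 were tested. limma called 0 of the 44 higher and 0 lower, with 5 positive and 3 negative at an unadjusted p under 0.05, beside 659 positive and 556 negative of all 13480 genes tested. edgeR called 0 as well. DESeq2 called 2 higher (Thbs1 and Serpine2) and 1 lower (Tubb1), in a fit that called 2.04% of all genes. The median log2 fold change of the 44 was -0.05, with 20 positive and 24 negative, beside -0.02 for all genes tested. Groups did not overlap for 9 of the 44, 4 higher and 5 lower with tamoxifen, beside 6.24% and 7.62% of all genes tested.

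Tubb1 encodes the beta-tubulin of the platelet marginal band. It had 46.0, 41.1 and 43.4 normalised reads without tamoxifen and 10.2, 10.5 and 9.82 with it. The groups were far apart, at 43.5 ± 2.47 and 10.2 ± 0.322 (SD, n = 3 each). These values rest on 53, 38 and 57 reads without tamoxifen and on 10, 11 and 14 with it. For 11 reads in tamoxifen_2 the exact 95% Poisson interval is 5.22 to 18.7 normalised reads. The SD of 0.322 is thus smaller than counting error alone would give and is no measure of precision. Its log2 fold change of -1.99 ± 0.32 (SE) did not pass over all genes in limma (adjusted p = 0.189), nor in edgeR (adjusted p = 0.188), and passed in DESeq2 (adjusted p = 0.00316). Over all 16 alternatives that tested it the value stayed negative, from -2.25 to -1.32, with adjusted p values of 0.00231 to 0.815. The 0.00231 came without tamoxifen_3, and the log2 value nearest to 0, -1.32 with an adjusted p of 0.718 in limma, came with column 6 counted as tamoxifen. Column 10 had 7.79 and column 6 had 71.2. Plek, a substrate of protein kinase C in platelets and leukocytes, was at -0.47 ± 0.16 (SE, limma adjusted p = 0.475). Ptgs1, the cyclooxygenase that makes the thromboxane precursor, was at -0.31 ± 0.14 (SE, limma adjusted p = 0.558). The list's 11 tested genes had a median of -0.18.

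Among 9 transcription factors the median was -0.09, with 4 positive and 5 negative. Gfi1b, a repressor needed for megakaryocyte and red cell maturation, had 10.4, 7.56 and 16.0 normalised reads without tamoxifen and 24.6, 35.2 and 23.1 with it. All its tamoxifen values lay above the others, at a log2 fold change of 1.25 ± 0.42 (SE, limma adjusted p = 0.475). These values rest on 12, 7 and 21 reads without tamoxifen and on 24, 37 and 33 with it. The log2 value was positive in 15 of the 16 alternatives that tested it. With the names over the last 8 value columns it was -0.068. Gfi1b was at 366 in column 6, the column with the erythroid sum of 141995. The erythroid sums of tamoxifen_1 and tamoxifen_2 were 1158 and 1467 against 293 to 441 without tamoxifen. In tamoxifen_3 that sum was 520, with Gfi1b at 23.1, and Gfi1b was at 24.6 in tamoxifen_1. The part of red cell RNA in the Gfi1b values was not tested. Zfpm1, the cofactor FOG-1 of Gata1, was at 0.71 ± 0.27 (SE, limma adjusted p = 0.504), and Fli1, the ETS factor shared by endothelium and megakaryocytes, at -0.33 ± 0.11 (SE, limma adjusted p = 0.475). Gata1 itself was at -0.19 ± 0.31 (SE, limma adjusted p = 0.884).

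Among 11 tested receptors the median was 0.16, with 6 positive and 5 negative. P2ry1, an ADP receptor, had 103, 76.7 and 81.4 normalised reads without tamoxifen and 132, 126 and 136 with it. These groups did not overlap, and the log2 fold change was 0.60 ± 0.19 (SE, limma adjusted p = 0.462). Clec1b, the platelet receptor for podoplanin, was at -0.86 ± 0.45 (SE, limma adjusted p = 0.599). Gp5, whose product joins the glycoprotein Ib-IX complex, was at -0.42 ± 0.35 (SE, limma adjusted p = 0.731). Gp6, the platelet collagen receptor gene, was below the filter and lay between 0 and 5.12 normalised reads in the 6 libraries.

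Among 13 granule protein genes the median was 0.00, with 7 positive and 6 negative. Thbs1, which encodes thrombospondin-1 and is also made by endothelium and connective tissue, had 5311, 5105 and 4298 normalised reads without tamoxifen and 8322, 8044 and 10545 with it. Every tamoxifen library lay above every other one, at 0.87 ± 0.14 on the log2 scale (SE, limma adjusted p = 0.189), and DESeq2 called it (adjusted p = 4.43e-07). Serpine2, a protease inhibitor gene also expressed in connective tissue, was at 1.01 ± 0.27 (SE, limma adjusted p = 0.460). Its values of 315, 307 and 165 with tamoxifen were largest in the libraries with the connective tissue sums of 57408 and 87747. Those libraries also had the highest red cell precursor and endothelial sums of the 6 libraries. The cause of the Serpine2 values was not tested. Vamp8 went the other way, at -0.42 ± 0.19 (SE, limma adjusted p = 0.551). Selp, the P-selectin gene of platelets and endothelium, was at 0.77 ± 0.36 (SE, limma adjusted p = 0.575). Without tamoxifen_3 the pathway calls were 8 higher and 6 lower, in a comparison that called 10.7% of all genes.

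**Figure D4:**
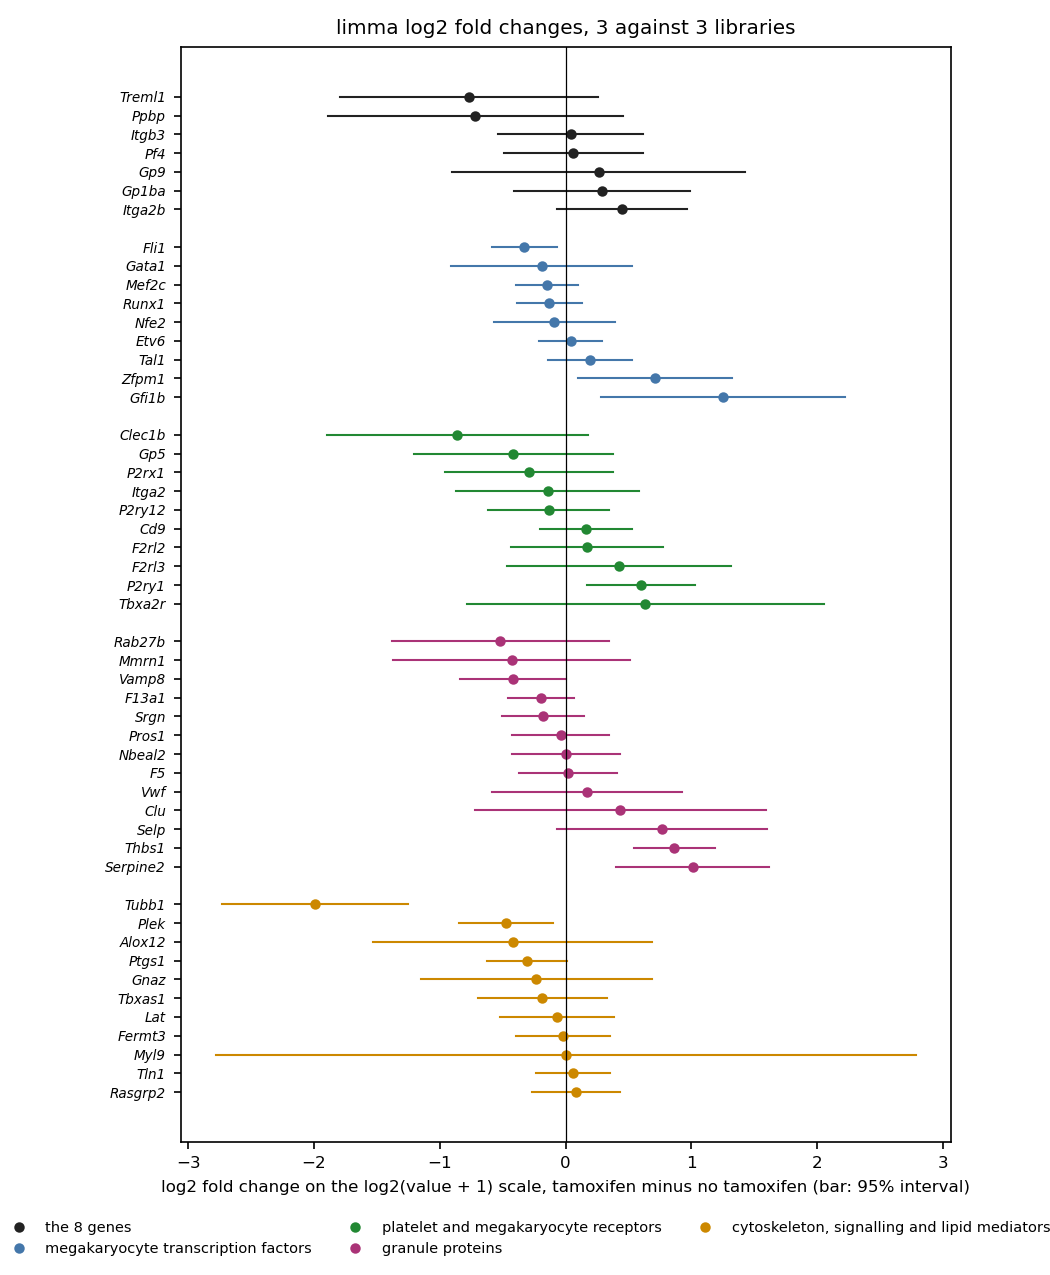
limma log2 fold changes on the log2(value + 1) scale, tamoxifen minus no tamoxifen, with 95% intervals, for the 7 tested genes (black) and 43 of the tested genes of the 4 pathway lists (colours). Tubb1 lies lowest at -1.99 and Gfi1b highest at 1.25, and none passed the adjusted threshold.

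The mean centred log2 profile of the 7 tested genes over the 6 libraries ran from -0.09 to 0.14, a nearly flat line, as a mean over genes tends to be. Of 10242 other genes averaging 50 normalised reads or more, those nearest to it, by the root mean square difference over the 6 libraries, were Cpsf6 (0.0279), Avl9 (0.0323), Gclm (0.0337), Phf20l1 (0.0383) and Srr (0.0391). This likeness is a description of 6 libraries.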

How the data were processed

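The authors deposited 1 table of normalised read counts per gene symbol (a signal unit), and STAR, HTSeq 0.11.2, DESeq2 and the builds hg38 and mm10 appear, with no roles, in the submitters' processing notes. Strand use in counting is not stated there. In the 8 columns used, 100% of values were whole multiples of 1 step per column (tolerance 0.001 reads), which gave whole reads for count tests. The 1 other value column was not used. The main comparison had 3 against 3 libraries.

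Genes with a mean of at least 10 were tested on log2(value + 1), a scale that understates changes of low genes, by limma 3.58.1 (R 4.3.3) with a trended prior, a single group term, Benjamini-Hochberg adjustment over 13480 genes and a threshold of 0.05. edgeR 4.0.16 (TMM), DESeq2 1.42.0, other pseudocounts, filters and scaling, left-out libraries and both header placements were alternatives. The fit was tested on simulated data. Coordinates and merged exon lengths are from GENCODE M21 on GRCm38, 1-based. The genes, lists and alternatives were chosen with earlier results of these data known. Genes named from a list are those past the threshold and otherwise up to 4 of lowest p. Gata1, Gp6 and the ratios were added after their values were seen. Adgre1 and Hbb-bs were matched to the table through RefSeq synonyms, and the listed Mpig6b, Bin2, Hbb-bt and Ly6g were not matched. 1 listed gene, included in the counts, is not reported here.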

Additional observations from a re-analysis of the deposited data

Results flagged for a closer look

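Columns 6 and 10 entered no main comparison, and in them 7 values of the platelet genes lay above every library without tamoxifen. The share of all genes that did so in these columns was not worked out, so this number cannot be judged. In column 6 these were Ppbp at 87.5 normalised reads (highest library without tamoxifen 45.1), Itga2b at 452 (273), Itgb3 at 439 (389), Gp1ba at 189 (81.6), Gp1bb at 34.6 (18.4) and Gp9 at 40.7 (25.9). In column 10 it was Gp1ba at 119.9, which is 1.47 times the highest library without tamoxifen. The group of column 6 depends on how the short header is read, and column 10 has either a tamoxifen name or none, so these differences were not tested. The group of 3 libraries on each side was too small for a search for single outlying libraries.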

How the results depend on the processing

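Over 17 alternatives, 16 called no gene of the 8 and 15 called no other pathway gene. Of 116 values of single genes, 104 kept their direction and their side of the threshold, 11 changed sign and 1, Itga2b, newly passed. Leaving out 1 library at a time gave log2 fold changes of -0.21 to 0.20 for Pf4, -0.15 to 0.31 for Itgb3, -0.078 to 0.60 for Gp9, 0.29 to 0.71 for Itga2b, 0.04 to 0.47 for Gp1ba, -1.02 to -0.23 for Ppbp and -0.92 to -0.53 for Treml1. In these leave-outs the genes called higher numbered 0 to 1, and pathway genes 0 to 8 higher and 0 to 6 lower. Genes with no overlap numbered 0 to 1 higher and 1 to 2 lower. Each upper end of these counts, though not of every fold change, was reached without tamoxifen_3. Leaving out a library can only keep or raise the number of genes with no overlap. Their share among all genes was not worked out for the leave-outs, so the rise in genes with no overlap cannot be judged. Placing the names over the last 8 columns, Pf4 was at 1.15 ± 1.09 (SE), Itgb3 was at -0.12 and 0 genes had groups that did not overlap in the lower direction. With column 10 added that count was also 0, and Pf4 was at -0.069. With the names over the first 8, which puts column 6 with tamoxifen, Pf4 was at -1.18 ± 1.26 (SE). DESeq2 called 2 pathway genes higher and 1 lower. By the longest transcript in place of merged exons, 6 of the 8 genes kept their rank by level per length, with Itga2b and Itgb3 exchanged. The cause of these changes was not tested. With the replicate number as a block, 0 of the 8 genes were called higher and 0 lower, and the calls over all genes went from 6 to 21. Same-numbered libraries had correlations of 0.195, 0.0364 and 0.345 in their deviations from the group means. Differently numbered ones ranged from -0.334 to 0.329, the highest being no_tamoxifen_1 with tamoxifen_2. Whether the numbers pair the libraries cannot be told from these few values. Read numbers of 4 to 29 limit Gp1bb, Gp9 and Treml1, those of 10 to 57 limit Tubb1, and those of 7 to 37 limit Gfi1b.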

Other observations

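The genes whose profile over the 6 libraries lay nearest to that of a single platelet gene were looked up after the values were seen. For Pf4 they were Tmem106a (root mean square difference 0.0487 on the log2 scale), Ltc4s (0.0497), which encodes the leukotriene C4 synthase of myeloid and mast cells, Dscc1 (0.0548), Kcnk13 (0.0730) and Cenpv (0.0743). For Itga2b they were the cell survival gene Bcl2 (0.0560), Gpr125 (0.0750), Pde10a (0.0889), Epha7 (0.0902) and the transcription factor gene Sox4 (0.102). None of the 10 is among the 8 genes. With 6 libraries and 10242 candidates, a close match of this kind is a description only.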
